A study of Drosophila melanogaster with 6 samples.

Results

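Translation initiation factors bring the small ribosomal subunit, the initiator tRNA and the mRNA together before a protein is made. eIF2 carries the initiator tRNA, eIF2B recharges eIF2 with GTP, eIF3 holds the small subunit, eIF4F (the cap-binding eIF4E, the scaffold eIF4G and the helicase eIF4A) loads the mRNA, and eIF1, eIF1A, eIF5 and eIF5B act in start codon choice and subunit joining. The fly embryo begins development on maternal mRNA and on factors loaded into the egg, and the genes of these factors are among the housekeeping genes that the zygote itself comes to transcribe. The genes described here are the 44 of the 17753 genes in the count table whose annotation symbol starts with eIF. They were grouped by factor into 2 genes of eIF1, 5 of eIF2, 5 of eIF2B, 13 of eIF3, 7 of eIF4, 2 of eIF5 and 1 of eIF6. Set apart were 9 paralogues, which a list written from general knowledge gives to the germline or testis: eIF3d2, eIF3f2, eIF3g2, eIF4E3, eIF4E4, eIF4E5, eIF4E6, eIF4E7 and eIF4G2.

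GRO-seq was used to measure nascent transcription. In this assay nuclei extend RNA already under synthesis with a biotin-labelled nucleotide, here from Drosophila melanogaster embryos picked by hand at stage 5, when zygotic genome activation (ZGA) takes place. DomKD embryos (genotype label t216) came from mothers in which an shRNA driven by the germline driver mat-alpha-Gal4 depleted domino, the ATPase that deposits the histone variant H2A.Z. Ctrl embryos (genotype label t180) came from a control RNAi line, and each of the 3 libraries per group was made from pooled embryos. Batch A held DomKD A1, DomKD A2 and Ctrl A1, and batch B held DomKD B1, Ctrl B1 and Ctrl B2. The knockdown acted in the maternal germline, whereas the reads come from the embryo's own nuclei. In pooled embryos, fewer transcribing nuclei and less transcription per nucleus cannot be told apart.

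Total counts lay between 10660708 and 15790602 in the DomKD libraries and between 12487166 and 24537992 in the Ctrl libraries. Of the genes tested, 564 to 1014 had no read in a DomKD library and 162 to 326 in a Ctrl library. The domino gene itself stood at 774 ± 167 CPM in DomKD and 789 ± 72.9 CPM in Ctrl (CPM are read counts scaled to library size with TMM factors, SD, n = 3 each), and nascent reads of the embryo do not measure the maternal depletion. All 14 genes of a stage 5 blastoderm list were tested, and their summed level was 21120 to 36870 CPM in DomKD libraries and 6550 to 17050 CPM in Ctrl libraries. The part of this shift in the results below was not tested. Summed levels of 10 testis genes were 6.80 to 7.55 CPM in DomKD and 6.30 to 9.56 CPM in Ctrl, those of 10 ovarian follicle and fat body genes were 2.34 to 10.99 CPM in DomKD and 9.66 to 11.7 CPM in Ctrl, and 3 genes of each of these lists had no read in any library. Summed levels of 10 nerve and muscle genes were 314 to 544 CPM in DomKD and 331 to 567 CPM in Ctrl.

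To ask how these genes were transcribed without maternal Domino, the DomKD libraries were compared with the Ctrl libraries across all genes. Relative to the other genes, 4 factor genes fell in DomKD embryos (eIF5B, eIF4E1, eIF2Balpha and eIF1A) and 4 rose (eIF3f2, eIF2D, eIF4A and eIF3g1), out of 36 with a mean of at least 10 counts. These 8 genes were 22.2% of the tested members, beside 21.7% of the 10429 genes tested (edgeR quasi-likelihood test, adjusted p under 0.05). A further 8 members, eIF6 and 7 of the paralogues, lay below that mean and were not tested. The share called lower was 9.64% over all genes and the share called higher was 12.1%, and the share of members called was near that of all genes. DomKD and Ctrl libraries did not overlap for 17 of the 36 members, beside 40.6% of all genes tested. The median log2 fold change was -0.09 over the members and -0.07 over all genes, and 28 members were not past the threshold.

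**Figure D1:**
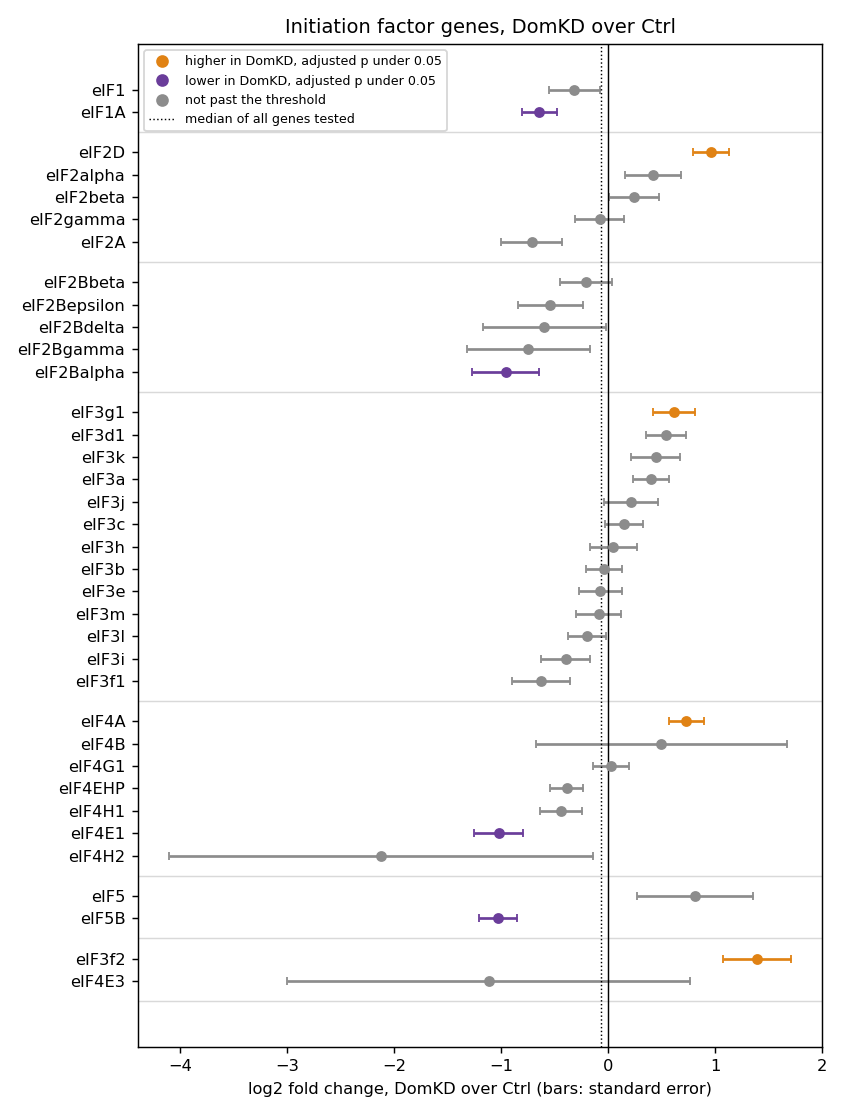
Log2 fold change of DomKD over Ctrl (x axis) for the 36 tested genes, by factor group (y axis), with standard errors as bars and the median of all genes as a dotted line. The 8 coloured genes passed the threshold, 4 to each side, and eIF4H2, eIF4E3 and eIF4B have wide bars.

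These directions are relative to the bulk of genes, because the scaling of the libraries moved all genes together. Scaling on total counts put the median of all genes at -0.56 and that of the members at -0.57. Of the 36 tested members, 14 were then called lower and 1 higher, beside 2747 lower and 538 higher of 10429 genes (31.5% called). Size factors were also taken from 50 Zelda target genes on a list written by hand (the Zelda list). The study took its size factors from its own, differently defined set of Zelda zygotic targets. The list genes summed to 44610 to 69320 CPM in DomKD libraries and 17130 to 33800 CPM in Ctrl libraries. Scaling on the list put all genes at -1.04 and the members at -1.05. Then 25 of 36 members were lower and 0 higher, beside 4641 lower and 97 higher of 10429 genes (45.4% called). Also 25 members had an unadjusted p under 0.05 in edgeR. DESeq2 with such factors and no batch term gave 25 lower and 0 higher, beside 47.2% of all genes called. Under the Zelda list scaling eIF4A and eIF3g1 stood at -0.23 and -0.35, eIF2D at 0.00013 and eIF3f2 at 0.43, all without a call, whereas the 4 lower genes stood between -1.61 and -2.0 and kept their calls.

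**Figure D2:**
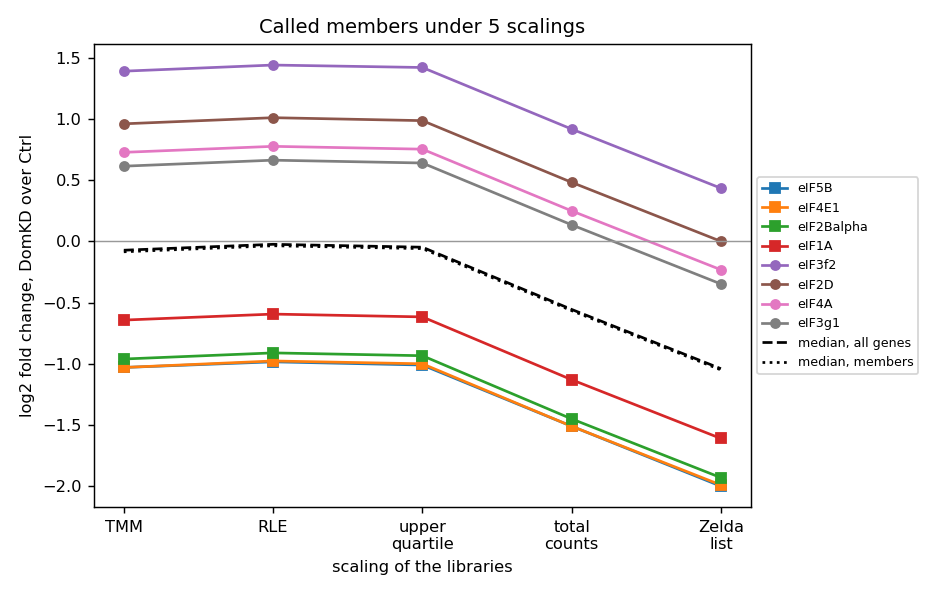
Log2 fold change of DomKD over Ctrl (y axis) of the 8 called genes under 5 scalings of the libraries (x axis), with the medians of all genes and of the members as dashed and dotted lines. The lines run nearly parallel from TMM to the Zelda list, where the median of all genes is -1.04, and the line of eIF5B lies under that of eIF4E1.

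The calls also rested on few libraries. Without DomKD B1 no member passed, with 9 genes called in all and 9 members at an unadjusted p under 0.05 in edgeR, and the fit then set DomKD A1 and A2 against Ctrl A1 as the only Ctrl library of batch A. Without Ctrl A1, when it set DomKD B1 as the only DomKD library of batch B against Ctrl B1 and B2, only eIF4E1 and eIF5B passed among the members. In that fit 647 genes were called in all (6.19%). Leaving out DomKD A1 gave 11 calls among the members, DomKD A2 gave 6, Ctrl B1 gave 5 and Ctrl B2 gave 4. In these fits 3082, 2137, 1295 and 1351 genes were called in all, in the same order. The main fit called 8 members and 2264 genes in all. No member passed the test of a difference in response between the batches (edgeR group by batch interaction, 0 members and 0 of 10429 genes past the threshold, 0 members and 608 genes at an unadjusted p under 0.05), in a fit with 2 residual degrees of freedom.

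Promoter sequences of 7 of the 8 called genes are shown because Drosophila housekeeping promoters are known for the motifs DRE (TATCGATA), Ohler1 (core GGTCACACT) and Ohler6 (core GTATNTTT), and Zelda targets for the TAGteam site (CAGGTA). The sequences are from the Release 6 genome (dm6), on the gene's own strand, and end 20 bases past the annotated start (the most 5′ one of the gene). They begin 120 bases before that start, or 220 bases before it for eIF1A, and capitals mark matches to the motifs on either strand.
eIF5B, 3L:3460958-3461097, minus strand: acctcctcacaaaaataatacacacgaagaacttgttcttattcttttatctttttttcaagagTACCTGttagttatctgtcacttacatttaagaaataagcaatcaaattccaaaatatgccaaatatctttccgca
eIF4E1, 3L:9402441-9402580, minus strand: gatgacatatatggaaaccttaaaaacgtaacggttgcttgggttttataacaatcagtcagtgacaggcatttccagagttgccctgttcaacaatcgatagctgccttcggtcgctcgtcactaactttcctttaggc
eIF2Balpha, 3R:29935869-29936008, minus strand: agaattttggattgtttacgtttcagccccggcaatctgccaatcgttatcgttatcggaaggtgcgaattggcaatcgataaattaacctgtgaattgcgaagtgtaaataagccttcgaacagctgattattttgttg
eIF1A, 3R:18274445-18274684, plus strand: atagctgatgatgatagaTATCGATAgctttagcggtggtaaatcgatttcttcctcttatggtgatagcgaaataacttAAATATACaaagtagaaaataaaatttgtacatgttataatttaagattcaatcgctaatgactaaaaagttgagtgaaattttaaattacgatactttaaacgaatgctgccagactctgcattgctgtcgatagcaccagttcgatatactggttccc
eIF2D, 3R:29151775-29151914, minus strand: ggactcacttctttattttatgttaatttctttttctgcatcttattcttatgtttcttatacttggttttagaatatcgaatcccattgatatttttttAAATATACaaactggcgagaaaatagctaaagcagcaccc
eIF4A, 2L:5981644-5981783, plus strand: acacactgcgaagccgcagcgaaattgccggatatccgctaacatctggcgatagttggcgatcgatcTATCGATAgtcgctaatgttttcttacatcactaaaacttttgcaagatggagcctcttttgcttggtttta
eIF3g1, X:2610317-2610456, minus strand: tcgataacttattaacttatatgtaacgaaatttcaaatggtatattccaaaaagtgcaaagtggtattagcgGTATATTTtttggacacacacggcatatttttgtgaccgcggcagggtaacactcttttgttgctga

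The capitals are a TAGteam match in eIF5B, a DRE and an Ohler6 match in eIF1A, a DRE in eIF4A and an Ohler6 match in each of eIF2D and eIF3g1. The windows of eIF4E1 and eIF2Balpha had no exact match. Each holds AATCGATA, which differs from the DRE letters only in its first base and was not counted. The promoter of eIF3f2, the called gene whose sequence is not shown, had no match from 250 bases before to 50 after its start. From 250 bases before to 50 after the start, a DRE was found in 12 of the 44 members (27.3%) and in 9.28% of 13827 protein-coding promoters of the same length. The Ohler6 core was found in 13 members (29.5%, beside 14.9%), the Ohler1 core in 3 (6.82%, beside 6.06%) and the TAGteam site in 1 (2.27%, beside 6.23%), with both strands searched. TTCTTT, a form of the core of the TCT initiator of ribosomal protein genes, was searched within 20 bases of the start on the gene's strand. It was found in eIF3d1 and eIF4E5 (4.55%, beside 2.00% of promoters), beginning at -10 and -13 and so not at the annotated start. Other forms of the initiator were not searched. The motifs can overlap one another, and a match is a description of letters.

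At least 1 of DRE, Ohler1 core and Ohler6 core was found in 23 of the 44 members (52.3%), beside 26.4% of all promoters. Of these 23 genes, 17 were tested, with 1 lower and 3 higher in DomKD and a median log2 fold change of 0.15. Of the 21 without these exact letters, which include eIF4E1 and eIF2Balpha, 19 were tested, with 3 lower and 1 higher and a median of -0.39. Over all genes tested, 9.64% were lower and 12.1% higher. The members with a motif ranged from -0.64 to 0.96 and those without from -2.12 to 1.39, so the ranges overlapped. Calls in either direction made up 23.5% of the tested members with a motif and 21.1% of those without, beside 21.7% of all genes tested. The 23 genes include the paralogues eIF3d2, eIF3g2, eIF4E4, eIF4E5 and eIF4E6, none of them tested. From 100 bases before to 50 after the start, 19 members had a motif (43.2%, beside 18.7% of all promoters). In that window eIF1A, the lower gene with a motif, had none. Only the most 5′ start was searched, while eIF4E1 has 4 annotated starts, eIF4A has 3, and eIF1A and eIF5B have 2 each.

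Transcription of the factors of start codon choice and subunit joining was lower in DomKD embryos for eIF5B and eIF1A. eIF5B (FBgn0026259), the GTPase that joins the ribosomal subunits, spans 3428658 to 3460977 on 3L, minus strand. Its level was 102, 80.4 and 80.7 CPM in DomKD libraries A1, A2 and B1, and 170.4, 196 and 165 CPM in Ctrl libraries A1, B1 and B2. All 3 DomKD libraries lay below all 3 Ctrl libraries. eIF5B had a log2 fold change of -1.03 ± 0.18 (SE, edgeR adjusted p 0.00247), and batch A alone gave -0.92 and batch B alone -1.16. eIF5B passed in each leave-one-out fit except that without DomKD B1 (edgeR adjusted p 0.0806).

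eIF1A (FBgn0026250), which with eIF1 keeps the small subunit open for scanning, spans 18274665 to 18283005 on 3R, plus strand. It stood at 90.4, 93.9 and 132 CPM in DomKD libraries A1, A2 and B1, against 164, 169.8 and 193 CPM in Ctrl libraries A1, B1 and B2. The groups did not overlap, and DomKD B1 was nearest to Ctrl. eIF1A had a log2 fold change of -0.64 ± 0.16 (SE, edgeR adjusted p 0.0152), with -0.83 within batch A and -0.45 within batch B. The call was lost without DomKD B1, Ctrl A1 or Ctrl B2 (edgeR adjusted p 0.0703, 0.171 and 0.056).

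eIF1 had the higher level per length of its group and was not past the threshold. It stood at 50.6, 91.8 and 98.6 CPM in DomKD libraries A1, A2 and B1, and 104, 116 and 94.0 CPM in Ctrl libraries A1, B1 and B2. The groups overlapped, with DomKD A1 far below the rest, and the log2 fold change was -0.32 ± 0.24 (SE). eIF5, the activating protein of the eIF2 GTPase, stood at 10.5 ± 1.36 CPM in DomKD and 7.25 ± 2.54 CPM in Ctrl (SD, n = 3 each), with a log2 fold change of 0.81, a standard error of 0.54 and an edgeR adjusted p of 0.327. Only 3.18% of its span is free of CG46312 on the same strand, so its count is uncertain. eIF6, which keeps the large subunit from joining early, had 0 counts in every library, and its whole span lies inside ytr on the same strand, so it was not measured.

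**Figure D3:**
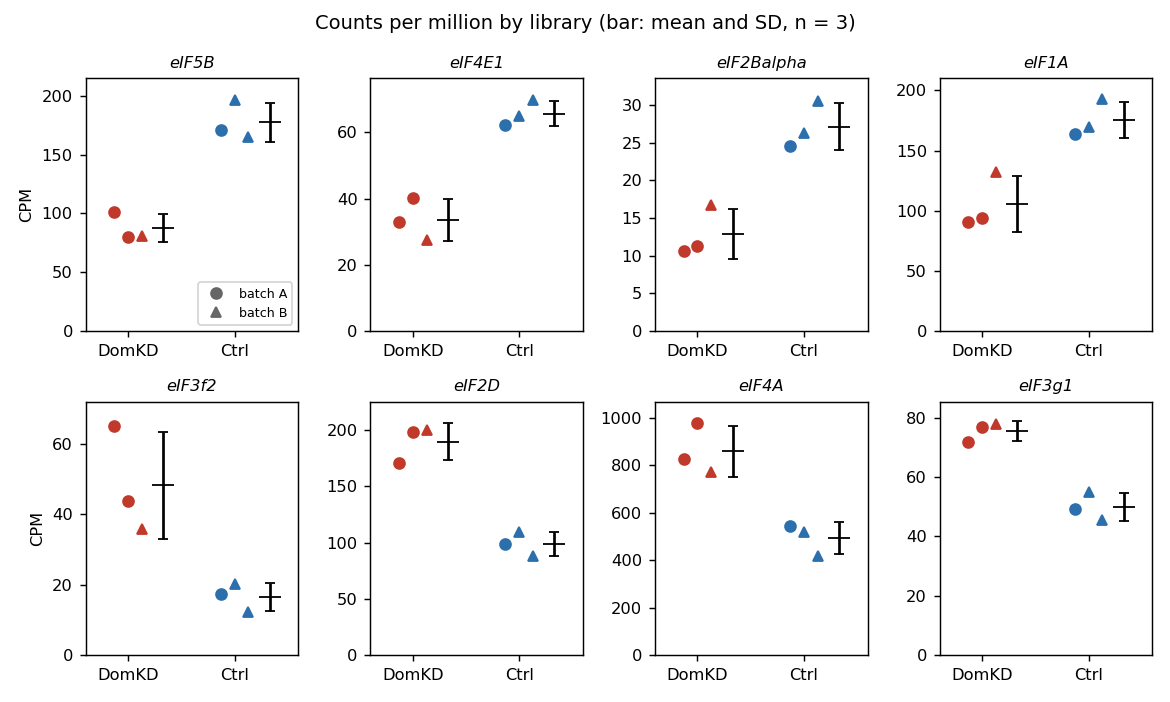
Level in CPM (y axis, from 0) of the 8 called genes in each library, DomKD left and Ctrl right, circles for batch A and triangles for batch B, with the mean and SD of 3 libraries as a bar. In each panel the DomKD points lie wholly to one side of the Ctrl points, and eIF3f2 has the widest DomKD spread for its mean, at 48.2 ± 15.2 CPM.

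Among the genes that deliver the initiator tRNA, eIF2D rose in DomKD and the subunits of eIF2 did not pass the test. eIF2D (FBgn0041588), known from mammals and yeast for recycling small subunits and for non-canonical tRNA delivery, spans 29149896 to 29151794 on 3R, minus strand. Its level was 171, 199 and 199.9 CPM in DomKD libraries A1, A2 and B1, and 98.9, 109 and 87.8 CPM in Ctrl libraries A1, B1 and B2. The groups did not overlap, and the library values within each group were close. Slbp lies 280 bases upstream on the same strand, and whether reads of Slbp run into eIF2D was not tested. eIF2D had a log2 fold change of 0.96 ± 0.17 (SE, edgeR adjusted p 0.00257), 0.90 within batch A and 1.03 within batch B. Total counts gave 0.48 (edgeR adjusted p 0.0369), and the call was lost without DomKD B1 or Ctrl A1 (edgeR adjusted p 0.0872 and 0.0522).

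The subunits eIF2alpha, eIF2beta and eIF2gamma had log2 fold changes of 0.42, 0.24 and -0.08, with standard errors of 0.26, 0.23 and 0.23. The DomKD libraries of eIF2alpha, the subunit phosphorylated under stress, lay above its Ctrl libraries, at 39.1 ± 7.39 CPM in DomKD and 26.9 ± 2.22 CPM in Ctrl (SD, n = 3 each). eIF2gamma, the GTP-binding subunit, shares its strand with Su(var)3-9, and 36.0% of its span is free of that gene. eIF2A, a factor separate from the eIF2 complex, stood at -0.72 ± 0.29 (SE, edgeR adjusted p 0.0966), with -0.21 within batch A and -1.22 within batch B.

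All 5 genes of eIF2B, the exchange factor that returns eIF2 to its GTP form, had log2 fold changes below 0, with a median of -0.60, beside 5495 of the 10429 genes tested and a median of -0.07, and only eIF2Balpha passed. eIF2Balpha (FBgn0039726), a subunit of its regulatory part, spans 29934582 to 29935888 on 3R, minus strand. It stood at 10.7, 11.3 and 16.7 CPM in DomKD libraries A1, A2 and B1, against 24.5, 26.3 and 30.6 CPM in Ctrl libraries A1, B1 and B2. No DomKD library reached the lowest Ctrl library. eIF2Balpha had a log2 fold change of -0.96 ± 0.32 (SE, edgeR adjusted p 0.0496), -1.15 within batch A and -0.76 within batch B. The call stood at the edge of the threshold and was lost without DomKD A2, DomKD B1, Ctrl A1, Ctrl B1 or Ctrl B2 (edgeR adjusted p 0.0645, 0.147, 0.292, 0.114 and 0.18). It was also lost with RLE or upper quartile scaling, without a count filter, with a minimum mean of 50 counts and without a batch term (edgeR adjusted p 0.0509 to 0.0616).

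eIF2Bbeta, with the highest level per length of the group, stood at 38.0, 28.2 and 48.4 CPM in DomKD libraries A1, A2 and B1, and 32.4, 62.8 and 68.6 CPM in Ctrl libraries A1, B1 and B2. The groups overlapped, and the low Ctrl library was the batch A library. eIF2Bbeta had a log2 fold change of -0.21 ± 0.24 (SE), and 0.03 without DomKD B1. The catalytic subunit eIF2Bepsilon, eIF2Bgamma and eIF2Bdelta had -0.54, -0.75 and -0.60, with standard errors of 0.30, 0.57 and 0.58.

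The eIF3 genes, 13 subunits of the scaffold on the small ribosomal subunit, had values on both sides of 0. Their median log2 fold change was 0.05, their range -0.63 to 0.61, and 1 of the 13 was called, eIF3g1. Positive values were found for 7 and negative for 6. eIF3g1 (FBgn0029629), an RNA-binding subunit, spans 2609247 to 2610336 on X, minus strand. It stood at 71.9, 77.1 and 77.9 CPM in DomKD libraries A1, A2 and B1, and 49.1, 55.2 and 45.7 CPM in Ctrl libraries A1, B1 and B2. The DomKD libraries were close together and above all Ctrl libraries. eIF3g1 had a log2 fold change of 0.61 ± 0.19 (SE, edgeR adjusted p 0.0412), 0.60 within batch A and 0.63 within batch B. Total counts gave 0.14, which was not past the threshold (edgeR adjusted p 0.653). The call was also lost without DomKD A2, DomKD B1, Ctrl A1, Ctrl B1 or Ctrl B2 (edgeR adjusted p 0.0631, 0.228, 0.212, 0.0782 and 0.149), and without a batch term (edgeR adjusted p 0.0634).

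Just outside the threshold was eIF3d1, a subunit known from human cells to bind the mRNA cap. It stood at 87.8, 116 and 116 CPM in DomKD libraries A1, A2 and B1, against 77.3, 68.5 and 76.6 CPM in Ctrl libraries A1, B1 and B2. The groups did not overlap, the log2 fold change was 0.54 ± 0.19 (SE, edgeR adjusted p 0.061), and it passed without DomKD A1 at 0.63 (edgeR adjusted p 0.0113). It also passed with RLE and upper quartile scaling (edgeR adjusted p 0.04 and 0.0472), with a minimum mean of 50 counts (edgeR adjusted p 0.0351) and in DESeq2 (adjusted p 0.0252). Scaled on the Zelda list, it stood at -0.43. eIF3k, with the highest level per length of the group, stood at 56.8, 101 and 93.6 CPM in DomKD libraries A1, A2 and B1, and 58.9, 73.0 and 62.7 CPM in Ctrl libraries A1, B1 and B2. DomKD A1 lay below the Ctrl libraries and the other DomKD libraries above them. The log2 fold change of eIF3k was 0.44 ± 0.23 (SE, edgeR adjusted p 0.204), and it passed without DomKD A1 at 0.59 (edgeR adjusted p 0.0244).

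The core subunits eIF3a, eIF3b and eIF3c had log2 fold changes of 0.40, -0.04 and 0.15. The remaining subunits eIF3e, eIF3f1, eIF3h, eIF3i, eIF3j, eIF3l and eIF3m lay between -0.63 (eIF3f1) and 0.21 (eIF3j). eIF3a stood at 367 ± 29.3 CPM in DomKD and 279.8 ± 38.6 CPM in Ctrl (SD, n = 3 each) without overlap (edgeR adjusted p 0.111, DESeq2 adjusted p 0.034), but scaled on the Zelda list it was called lower at -0.56 (edgeR adjusted p 0.0127). eIF3f1 stood at 25.5 ± 6.65 CPM in DomKD and 41.7 ± 2.95 CPM in Ctrl, also without overlap (SD, n = 3 each, edgeR adjusted p 0.116).

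Of the 3 parts of eIF4F, eIF4A rose, eIF4E1 fell and eIF4G1 had a log2 fold change of 0.02 ± 0.17 (SE, edgeR adjusted p 0.939), all relative to the other genes. eIF4A (FBgn0001942), the helicase that unwinds the mRNA leader, spans 5981764 to 5985909 on 2L, plus strand. Its level was 826, 978 and 772 CPM in DomKD libraries A1, A2 and B1, and 545, 517 and 416 CPM in Ctrl libraries A1, B1 and B2. No library of either group entered the range of the other. eIF4A had a log2 fold change of 0.73 ± 0.16 (SE, edgeR adjusted p 0.00915), 0.72 within batch A and 0.73 within batch B. Total counts gave 0.25 (edgeR adjusted p 0.183). The call was lost without DomKD B1 or Ctrl A1 (edgeR adjusted p 0.122 and 0.114).

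eIF4E1 (FBgn0015218), the main cap-binding protein, spans 9399618 to 9402460 on 3L, minus strand. It stood at 32.9, 40.1 and 27.7 CPM in DomKD libraries A1, A2 and B1, against 62.1, 65.1 and 69.8 CPM in Ctrl libraries A1, B1 and B2. The Ctrl libraries were close together and all above the DomKD libraries. eIF4E1 had a log2 fold change of -1.03 ± 0.23 (SE, edgeR adjusted p 0.00896), -0.77 within batch A and -1.28 within batch B. The call was lost without DomKD B1, Ctrl B1 or Ctrl B2 (edgeR adjusted p 0.144, 0.0541 and 0.0564). eIF4G1, the scaffold on chromosome 4, stood at 416, 489 and 717 CPM in DomKD libraries A1, A2 and B1, and 481, 736 and 569.7 CPM in Ctrl libraries A1, B1 and B2, with overlapping groups and higher values in batch B. eIF4G1 was called lower with total counts (-0.45, edgeR adjusted p 0.0272), when scaled on the Zelda list (-0.93, edgeR adjusted p 0.000277) and in DESeq2 with Zelda list factors (-1.29, DESeq2 adjusted p 0.0027).

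Ratios of counts within a library do not depend on the scaling. They were taken after the values were seen and are given as a description. The log2 ratio of eIF4A over eIF4E1 was 4.65, 4.61 and 4.8 in DomKD libraries A1, A2 and B1, and 3.13, 2.99 and 2.57 in Ctrl libraries A1, B1 and B2. It averaged 4.69 ± 0.10 in DomKD and 2.90 ± 0.29 in Ctrl (SD, n = 3 each), a difference of 1.79, with 1.50 within batch A and 2.02 within batch B. DomKD libraries of both batches lay above every Ctrl library, which follows from eIF4A lying above and eIF4E1 below the Ctrl libraries in every DomKD library. For eIF4A over eIF4G1 the ratio was 0.99, 1.00 and 0.11 in DomKD libraries A1, A2 and B1, and 0.18, -0.51 and -0.45 in Ctrl libraries A1, B1 and B2, so DomKD B1 lay below Ctrl A1, while the difference within each batch was positive (0.81 in A and 0.59 in B). For eIF4E1 over eIF4G1 the ratio was -3.66, -3.61 and -4.7 in DomKD libraries A1, A2 and B1. In Ctrl libraries A1, B1 and B2 it was -2.95, -3.5 and -3.03, so the groups did not overlap. The ratio of eIF2D over eIF5B, again a called higher gene over a called lower gene, averaged 1.12 ± 0.32 in DomKD and -0.85 ± 0.06 in Ctrl (SD, n = 3 each). There were more eIF2D than eIF5B counts in every DomKD library and fewer in every Ctrl library.

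**Figure D4:**
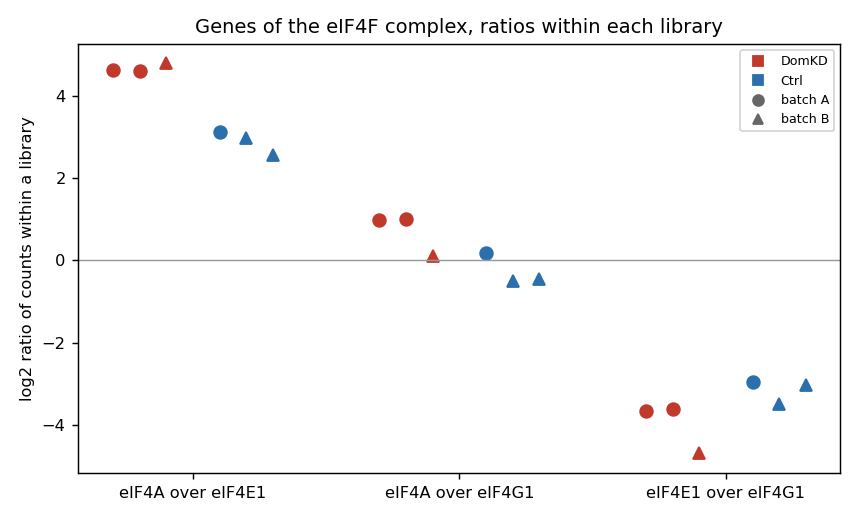
Log2 ratio of raw counts between genes of eIF4F within each library (y axis) for 3 gene pairs (x axis), DomKD in red left of Ctrl in blue, circles for batch A and triangles for batch B. The DomKD libraries lie between 4.61 and 4.8 for eIF4A over eIF4E1, above the Ctrl libraries at 2.57 to 3.13, whereas the groups overlap for eIF4A over eIF4G1.

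The remaining eIF4 genes were not called. eIF4EHP, a cap-binding repressor that competes with eIF4E and silences maternal mRNAs such as caudal in the fly embryo, stood at 323, 341 and 424 CPM in DomKD libraries A1, A2 and B1, against 477, 528 and 484 CPM in Ctrl libraries A1, B1 and B2. The groups did not overlap, and the log2 fold change was -0.39 ± 0.15 (SE, edgeR adjusted p 0.0873, DESeq2 adjusted p 0.0371). Of its span, 90.9% is free of Syx1A on the same strand. eIF4H1, a helper of eIF4A, had -0.44 ± 0.19 (SE), with -0.81 within batch A and -0.07 within batch B (edgeR interaction p 0.0651 before adjustment).

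eIF4H2 and eIF4B had few reads. eIF4H2 had 0 counts in DomKD A1 and A2, a log2 fold change of -2.12 ± 1.98 (SE, edgeR adjusted p 0.494), and stood at 0.523 ± 0.907 CPM in DomKD and 1.38 ± 0.578 CPM in Ctrl (SD, n = 3 each). eIF4B, another helper of eIF4A, stood at 3.13 ± 1.91 CPM in DomKD and 2.21 ± 0.534 CPM in Ctrl (SD, n = 3 each). None of the span of eIF4B is free of lncRNA:CR46482 on the same strand in the annotation used here, so its count is uncertain.

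Of the 9 paralogues set apart, eIF3f2 was transcribed and rose in DomKD. The gene (FBgn0033069) spans 6200853 to 6201956 on 2R, plus strand, and is a copy of eIF3f1. It stood at 65.1, 43.6 and 35.8 CPM in DomKD libraries A1, A2 and B1, against 17.4, 20.1 and 12.2 CPM in Ctrl libraries A1, B1 and B2. Every DomKD library was above every Ctrl library, with a wide range among the DomKD libraries. eIF3f2 had a log2 fold change of 1.39 ± 0.32 (SE, edgeR adjusted p 0.00968), 1.61 within batch A and 1.19 within batch B. Total counts gave 0.92 (edgeR adjusted p 0.0552), and the call was lost without DomKD B1 or Ctrl A1 (edgeR adjusted p 0.107 and 0.156). Beside eIF3f1, the log2 ratio of counts of eIF3f2 over eIF3f1 was 1.86, 0.65 and 0.23 in DomKD libraries A1, A2 and B1, and -1.16, -1.03 and -1.88 in Ctrl libraries A1, B1 and B2. Thus eIF3f2 had more counts than eIF3f1 in every DomKD library and fewer in every Ctrl library, and the spans of the genes are similar, at 1104 and 1301 bases.

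The other paralogues had few or no reads. eIF4E3, required for male germ cells in the fly, stood at 0, 1.55 and 0.822 CPM in DomKD libraries A1, A2 and B1, and 1.42, 0.773 and 3.52 CPM in Ctrl libraries A1, B1 and B2. The groups overlapped, and the edgeR adjusted p was 0.721. eIF4E6 had 28 counts in DomKD B1, 17 in Ctrl B1 and 0 in the other libraries. eIF4E7 had 25 counts in DomKD A2, 7 in Ctrl B1, 15 in Ctrl B2 and 0 elsewhere. eIF3d2 had 1 count, in Ctrl A1. eIF3g2, eIF4E4, eIF4E5 and eIF4G2 had 0 counts in all 6 libraries, where a floor of 3 counts corresponds to 0.224 to 0.335 CPM in DomKD libraries and 0.105 to 0.213 CPM in Ctrl libraries. eIF4G2 lies wholly within CG33111 on the same strand and was therefore not measured. The floors cover counting error only, since the counted reads were not deduplicated.

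Levels can be compared between genes only per length, here as CPM per kilobase of gene span, introns included. The median of the 36 tested members was 28.2 CPM per kilobase, beside 7.92 for all genes tested. eIF4A was the highest of the members, at 163 CPM per kilobase over the 6 libraries, above 96.5% of all genes tested. The 13 eIF3 genes kept within a narrow band, with eIF3f1 lowest at 25.8, a median of 39.6 and eIF3k highest at 80.8 CPM per kilobase, so the range was 3.13-fold. The eIF2B genes lay lower, between 4.29 for eIF2Bgamma and 28.2 for eIF2Bbeta. eIF5B, with a span of 32320 bases, stood at 4.10 and eIF4EHP, with 45884 bases, at 9.36 CPM per kilobase. The neighbours eIF3k and eIF3a in this order differed by less than their spread. eIF3k stood at 91.1 ± 25.7 in DomKD and 70.6 ± 7.90 in Ctrl, and eIF3a at 89.6 ± 7.15 in DomKD and 68.3 ± 9.42 in Ctrl, in CPM per kilobase (SD, n = 3 each).

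**Figure D5:**
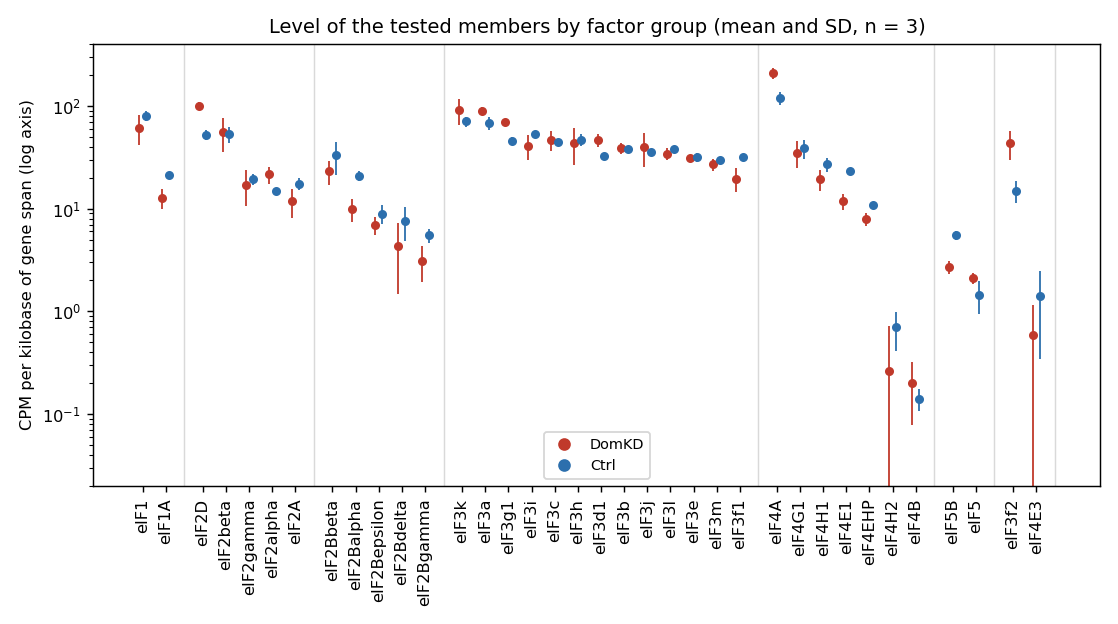
Level of the 36 tested genes in CPM per kilobase of gene span (y axis, log scale) by factor group (x axis), DomKD in red and Ctrl in blue, as mean and SD of 3 libraries; a lower bar that would pass 0 runs to the axis. The eIF3 genes lie in a band with group means between 19.6 and 91.1, and eIF4A stands above the other members.

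The spread between libraries was wider in DomKD than in Ctrl for 29 of the 36 members, beside 72.1% of all genes tested. The median SD of log2 CPM was 0.35 in DomKD and 0.16 in Ctrl for the members, and 0.54 in DomKD and 0.31 in Ctrl for all genes. DomKD A1 held the lowest value of 15 members (41.7%, beside 25.6% of all genes, ties at 0 given to the first library). The members' median log2 CPM was 5.68 in DomKD A1, 6.30 in DomKD A2, 6.31 in DomKD B1, and 6.04 to 6.12 in the Ctrl libraries. The 44 members took 0.301% to 0.383% of all counts in DomKD libraries and 0.441% to 0.506% in Ctrl libraries, and this share depends on how much other genes take.

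Other genes of translation were followed on lists written from general knowledge. Of 19 tested regulators of initiation, 5 fell and 2 rose, which is 36.8% of the list beside 21.7% of all genes tested (9.64% lower and 12.1% higher). Gcn2, a kinase of eIF2alpha, fell by 1.27 on the log2 scale, with 19.6 ± 3.38 CPM in DomKD and 45.4 ± 1.04 CPM in Ctrl (SD, n = 3 each, edgeR adjusted p 0.00598). PPP1R15, which brings a phosphatase to the same protein, fell by 0.81 (edgeR adjusted p 0.0302). The other calls were NAT1, an eIF4G-like protein (-0.67, edgeR adjusted p 0.0137), pum, a repressor of mRNAs (-0.59, edgeR adjusted p 0.0146), Paip2, an inhibitor of the poly(A)-binding protein (-0.53, edgeR adjusted p 0.0462), S6k, a kinase below TOR (1.05, edgeR adjusted p 0.00128), and me31B, a helicase of repressed mRNAs (0.59, edgeR adjusted p 0.02). Scaled on the Zelda list, S6k stood at 0.08 and me31B at -0.37, both without a call.

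Of 7 termination and recycling genes, MCTS1 fell and HBS1 rose (28.6%, beside 21.7% of all genes tested). MCTS1, which forms with DENR a pair that recycles small subunits and shares domains with eIF2D, stood at 18.4 ± 8.98 CPM in DomKD and 66.5 ± 21.1 CPM in Ctrl (SD, n = 3 each), with a log2 fold change of -1.59 (edgeR adjusted p 0.00692), -1.71 within batch A and -1.63 within batch B. DENR stood at -1.0 ± 0.35 (SE, edgeR adjusted p 0.0626). HBS1, a ribosome rescue factor, had 0.74 (edgeR adjusted p 0.00884) and stood at -0.22 with the Zelda list scaling. None of 7 elongation factors was called, with 0.08 to 0.51 on the log2 scale and a median of 0.38 (all genes, -0.07). Total counts put their median at -0.11 (all genes, -0.56) and the Zelda list put it at -0.59 (all genes, -1.04). None of these 9 called genes passed without DomKD B1, where the edgeR adjusted p ran from 0.0612 for NAT1 to 0.323 for Paip2, and only S6k passed without Ctrl A1 (edgeR adjusted p 0.0335). The calls of Paip2 and me31B were also lost without DomKD A2 (edgeR adjusted p 0.0938 and 0.0648) or Ctrl B2 (edgeR adjusted p 0.134 and 0.0556). Those of Paip2 and PPP1R15 were lost without Ctrl B1 (edgeR adjusted p 0.157 and 0.096), and that of PPP1R15 without Ctrl B2 (edgeR adjusted p 0.0968). Without a batch term the calls of HBS1, PPP1R15, pum and Paip2 were lost (edgeR adjusted p 0.0884, 0.0537, 0.0769 and 0.0716). That of Paip2 was also lost with RLE and upper quartile scaling and with a minimum mean of 50 counts (edgeR adjusted p 0.0709, 0.0597 and 0.0579). With total counts me31B stood at 0.11 and HBS1 at 0.26, without a call (edgeR adjusted p 0.605 and 0.23). With the replicate numbers of the titles in place of batch, only S6k, Gcn2 and MCTS1 kept their calls (edgeR adjusted p 0.0234, 0.0334 and 0.0347).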

How the data were processed

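GRO-seq libraries of 3 DomKD and 3 Ctrl stage 5 embryo pools were analysed. The authors deposited raw read counts per gene and strand, made per the study's methods and the submitters' processing notes by trimming with Cutadapt 2.5 and UMI-tools 1.0, Bowtie2 local alignment to dm6 and featureCounts on alignments that were not deduplicated. Reads of genes that overlap on a strand cannot be told apart, and reads that run in from a gene just upstream were not tested for. The deposited gene length, another column of the table, equalled the annotated span for all 44 members. Symbols, positions and starts came from Ensembl release 115, which matched 17626 of 17753 genes. No column was left without a sample.

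A gene was tested if its mean count reached 10, in edgeR 4.0.16 (R 4.3.3) with TMM scaling, batch and group in the model, a two-sided robust quasi-likelihood test and Benjamini-Hochberg adjustment over all 10429 genes at 0.05. Standard errors are the change divided by the root of F. CPM used TMM-scaled library sizes, and log2 CPM a prior count of 2. Fits with DESeq2 1.42.0, other scalings, filters, models and libraries left out were alternatives. Whether the replicate numbers of the titles pair libraries was not settled, and the main fit did not use them. The study names 3 biological replicates per genotype.

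Every member was named, with values per library for called members, the member of highest level per kilobase in each group, the 2 nearest the threshold outside it, and the paralogues with reads. Members, lists and alternatives were chosen with earlier results of these data known, so no list was tested.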

Additional observations from a re-analysis of the deposited data

How the results depend on the processing

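The count of 8 called members stood at 8 with RLE scaling, upper quartile scaling, no count filter and a mean of at least 50 counts. Of all genes, 21.8%, 21.6%, 21.1% and 28.4% were called in these fits, and the last tested 33 members. The count stood at 6 without a batch term (15.4% of all genes) and at 11 with DESeq2 (27.6% of all genes). The first 4 of these fits each kept 7 of the 8 calls: eIF2Balpha was lost, and eIF3d1 was gained, or eIF2A without a count filter. DESeq2 kept all 8 and added eIF3a, eIF3d1 and eIF4EHP. The count was 15 with total counts (31.5% of all genes). It was 25 both with the Zelda list scaling (45.4% of all genes) and in the DESeq2 fit that used Zelda list factors without batch (47.2%). Using the replicate block instead of batch gave 4 (eIF2D, eIF3f2, eIF4E1 and eIF5B), while 1035 genes were called in all. Deviations of log2 CPM from the group mean were correlated between same-numbered libraries of the groups, with values from -0.36 to 0.24. DomKD A1 with Ctrl A1 gave 0.20 and DomKD B1 with Ctrl B1 gave 0.24. Differently numbered libraries were not correlated for reference, so whether the numbers pair libraries cannot be told from these values. With each library left out in turn the count ran from 0 to 11, beside 0.0861% to 29.6% of all genes. The median log2 fold change of the members was -0.57 with total counts, -1.05 with the Zelda list scaling and -1.29 in that DESeq2 fit, and under the other settings it differed from -0.09 by less than the spread between libraries (0.26). Leaving out libraries gave -0.15 to -0.09.

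Of the 36 tested members, 8 turned to below 0 with total counts, 13 with the Zelda list scaling and 14 in that DESeq2 fit. Of these, eIF4G1 was called lower in all 3 fits, and eIF2beta, eIF3a, eIF3c, eIF3h and eIF3j in both Zelda list fits (-0.73, -0.56, -0.81, -0.92 and -0.75 with edgeR). Among the other members given by library, the following turned without passing the threshold in the fit that turned them. With the Zelda list scaling eIF3d1 stood at -0.43, eIF3g1 at -0.35, eIF3k at -0.52 and eIF4A at -0.23. In that same DESeq2 fit eIF2D stood at -0.20, eIF3d1 at -0.61, eIF3g1 at -0.55, eIF3k at -0.78 and eIF4A at -0.33. With total counts eIF3k stood at -0.037, and eIF2Bbeta ran from -0.50 to 0.030 over the libraries left out, the last without DomKD B1. Elsewhere 0 to 4 members turned, each without a call. Of the pathway genes called, me31B and HBS1 turned to below 0 in both Zelda list fits and S6k in the DESeq2 one, without a call. With total counts, 1 of 7 elongation factors, 4 of 7 termination and recycling genes and 11 of 19 regulators were called, beside 31.5% of all genes. With the Zelda list scaling these lists had 3, 6 and 14 calls, beside 45.4% of all genes. The cause was not tested beyond the construction of each scaling, which shifts all genes by nearly the same amount in edgeR. That DESeq2 fit also left out batch, so its shifts differed between genes. From DESeq2 with batch to that fit, eIF2Bbeta went from -0.16 to -1.73 and eIF2A from -0.67 to -1.76. Members at few counts, such as eIF4H2, eIF4B and eIF4E3, have standard errors of 1.17 to 1.98, and changes of their size were not detectable at this depth.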
